A study of Rattus norvegicus with 6 samples.

Results

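The subject is a group of 8 secreted proteins listed together as neurotrophic ligands for axon growth: the neurotrophins Bdnf and Ntf3, the GDNF family ligands Gdnf, Nrtn, Artn and Pspn, and the growth factors Fgf2 and Hgf. They were chosen by gene symbol, and each of the 8 symbols matched 1 row among the 29884 genes of the deposited count table. RNA-seq had been run on trigeminal ganglia, which hold the cell bodies of the facial sensory neurons, from 6 wild type rat samples. The 3 injury samples followed chronic constriction of the infraorbital nerve (CCI-ION), a model of trigeminal neuralgia, and the 3 conduit samples followed the same constriction with SFM-Gel @NGC-Light, a light-driven gel in a nerve conduit. All 6 ganglia thus carried the constriction, and uninjured or sham ganglia, the conduit without light and the gel without conduit are not analysed here. The labels list 14, 15 and 16 days after injury for injury samples 1 to 3 and 17, 18 and 19 days for conduit samples 1 to 3. These rise by 1 from each sample to the next through both groups, so it is uncertain that they record when each ganglion was collected. If they do, day and group cannot be told apart. Strain, age, sex and the number of animals behind each sample are not stated in the labels used here, so p-values measure the spread between samples, which may be technical.

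Libraries held 40172473 to 41903629 counts. The markers of sensory neurons were abundant in every library, with 12 of 12 tested and a summed level of 23285 to 25429 CPM (counts scaled to library size, with TMM) in injury and 21721 to 30820 in conduit. Other tissues differed between libraries. Skeletal muscle markers (6 of 6 tested, with Myh1 at 0 in 1 library) summed to 7.57 to 460 CPM in injury and 8.08 to 8245 in conduit, with injury sample 1 and conduit sample 2 far above the rest. Bone markers (7 of 7) summed to 95.8 to 360.2 CPM in injury and 63.5 to 98.8 in conduit, and dividing cell markers (7 of 7) to 13.3 to 93.1 and 12.2 to 18.2 CPM. The 8 red blood cell markers reached 4457 to 5313 CPM in the injury libraries, above the 511 to 1272 CPM of the conduit libraries. In bulk samples, fewer cells of a type and less RNA per cell cannot be told apart. Injury samples 1 and 2 came from batch 1, injury sample 3 and conduit sample 1 from batch 2, and conduit samples 2 and 3 from batch 3, as the labels name them.

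Each of these ligands acts through a receptor tyrosine kinase. Bdnf binds TrkB (Ntrk2) and Ntf3 binds TrkC (Ntrk3), and both also bind the p75 receptor (Ngfr). Gdnf, Nrtn, Artn and Pspn each prefer 1 co-receptor, Gfra1, Gfra2, Gfra3 and Gfra4 in that order, and all of them signal through Ret. Fgf2 acts on fibroblast growth factor receptors such as Fgfr1, and Hgf, made mostly by mesenchymal cells, acts on Met. After nerve injury, Schwann cells of the distal stump are known to make Gdnf, Artn and Bdnf, and a subset of sensory neurons makes Bdnf itself.

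The ligand transcripts did not separate the conduit group from the injury group. Of the 8 ligands 7 passed the filter on low counts, and 0 of these 7 were called by edgeR's quasi-likelihood test at an adjusted p under 0.05, against 0.00607% of the 16478 genes tested. At an unadjusted p under 0.05, edgeR placed 0 of the 7 ligands, against 5.35% of the genes, and DESeq2 called 0 of the same 7, against 1.23% of its genes, and gave Gdnf no adjusted p. For 0 of the 8 ligands were the libraries of the groups apart, which held for 9.63% of the genes tested. At these shares few or none are to be found among 7 or 8 genes. The estimates lay on both sides of zero, 3 higher and 4 lower in conduit, with a median log2 fold change of -0.04 beside 0.0017 over all genes tested. The 95% intervals of Bdnf, Nrtn and Hgf lay inside a 2-fold change, whereas those of Ntf3, Artn, Pspn and Fgf2 did not. Of 13 other settings that give an interval, Nrtn left the 2-fold limits in 8, 4 of them with 1 library left out, and Bdnf and Hgf left them in 1 each, with batch as a term.

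**Figure D1:**
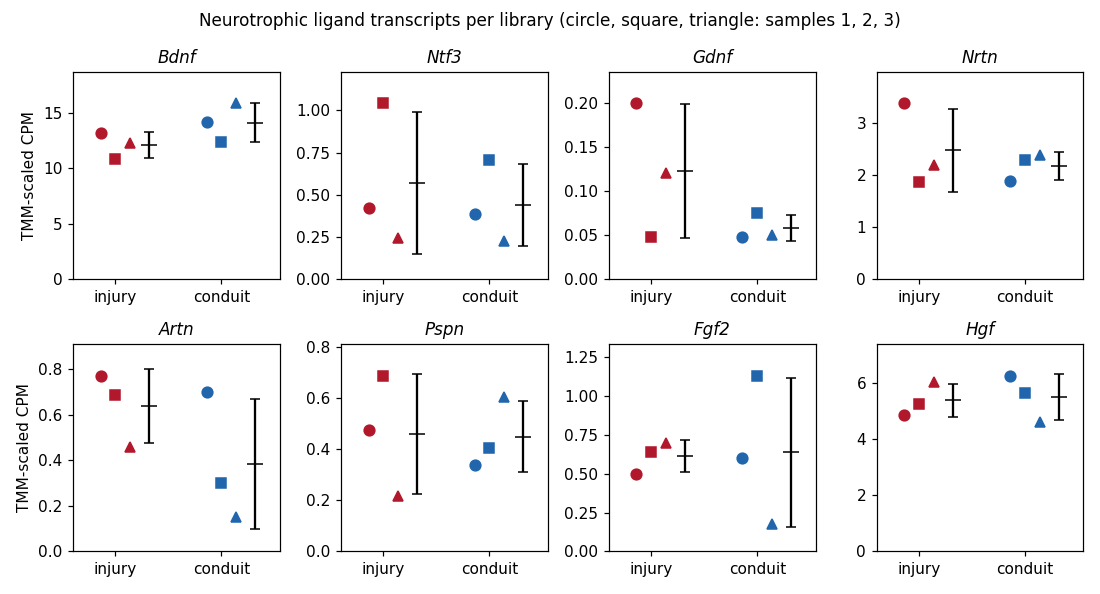
TMM-scaled CPM (vertical axis, from 0) of each ligand in the 3 injury libraries (red) and the 3 conduit libraries (blue), with sample numbers given by symbol shape and the mean and SD of each group in black. The groups overlap for each of the 8 ligands, and Bdnf, at 10.8 to 15.8 CPM, stands highest on this scale.

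Bdnf, which regulates synaptic strength and sensitisation in pain pathways, was the steadiest of the neurotrophins. It stood at 13.2, 10.8 and 12.3 CPM in injury samples 1 to 3 and at 14.2, 12.3 and 15.8 CPM in conduit samples 1 to 3. The conduit libraries lay at the upper end, with conduit samples 1 and 3 above each injury library and conduit sample 2 level with injury sample 3. The group means were 12.1 ± 1.20 CPM and 14.1 ± 1.76 CPM (SD, n = 3 each), a log2 fold change of 0.22 (SE 0.14; edgeR adjusted p = 0.9998). The 95% interval of that fold ran from 0.924 to 1.48, and with batch as a term it widened to a log2 interval of -0.61 to 1.02. The sign stayed positive in each of 18 other settings, with log2 fold changes of 0.0981 to 0.391, and the single pair of libraries in batch 2 gave 0.21. Bdnf had 456 to 630 counts per library, and counting error alone would give an interval of the ratio of 1.09 to 1.26, which is narrower than the one that counts the spread between samples.

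The Bdnf count adds up transcripts from several starts. RefSeq lists 6 Bdnf start windows of 300 bases on build GRCr8 (250 before a start and 50 after), more than for any other of the 8 ligands, and at least 6 windows are listed for 0.754% of the 27457 genes with one. Gene-level counts cannot tell these starts apart. Start window 4 is shown because it is the one of the 6 that holds a cAMP response half-site, the type of element through which neuronal activity and CREB are known to induce Bdnf. It lies on the plus strand at chr3:116637608-116637907, and the capitals mark the half-site, read here as the reverse complement of TGACG, beginning 35 bases before the start.
Bdnf, start window 4: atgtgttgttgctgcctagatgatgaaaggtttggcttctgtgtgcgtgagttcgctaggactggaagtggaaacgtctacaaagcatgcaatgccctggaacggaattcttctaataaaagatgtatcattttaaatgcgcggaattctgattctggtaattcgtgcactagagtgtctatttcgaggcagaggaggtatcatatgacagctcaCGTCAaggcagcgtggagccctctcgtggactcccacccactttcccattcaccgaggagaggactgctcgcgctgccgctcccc
Both strands of the windows of the 8 ligands were searched for TGACG, which is also the first part of the full palindrome TGACGTCA. The short form was found in 4 of 15 windows (26.7%), 1 each of Bdnf, Gdnf, Artn and Fgf2, against 21.2% of all 33469 windows of that length, and the full palindrome in 0 of 15, against 1.83%. The other 3 matches are given for comparison as 41 bases around each, on the plus strand for Gdnf and Fgf2 and the minus strand for Artn, again with the match in capitals.
Gdnf, chr2:58621260-58621300: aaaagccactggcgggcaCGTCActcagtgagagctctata
Artn, chr5:136753556-136753596: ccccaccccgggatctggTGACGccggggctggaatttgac
Fgf2, chr2:122164342-122164382: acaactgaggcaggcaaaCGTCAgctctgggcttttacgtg
The matches lie 49, 121 and 94 bases before the starts of Gdnf, Artn and Fgf2. A match of these letters is a description and not a site of binding. Among activity-induced genes of the same ganglia, Egr1, an immediate early transcription factor, ranged from 43.3 to 95.2 CPM in injury and from 19.6 to 53.3 CPM in conduit. Arc, a synaptic immediate early gene, kept to 3.21 to 4.52 CPM in injury and 3.48 to 4.37 CPM in conduit.

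Ntf3, the neurotrophin for muscle-spindle and some touch neurons, was scarce and uneven. It stood at 0.423, 1.04 and 0.241 CPM in injury and at 0.386, 0.703 and 0.226 CPM in conduit. Sample 2 of each group was the highest, and conduit sample 3 and injury sample 3 were the lowest, so the spread within each group exceeded the difference between the means of 0.568 ± 0.419 and 0.438 ± 0.243 CPM (n = 3 each). The log2 fold change was -0.37 (SE 0.67; edgeR adjusted p = 0.9998), with a 95% interval of the fold from 0.254 to 2.34. Without injury sample 2 the log2 fold change was 0.40, and within batch 2 it was 0.59. Markers of pericytes and smooth muscle (8 of 8 tested, none at 0) had the same highest pair and the same lowest library. They summed to 231, 458 and 330.01 CPM in injury and to 408, 436 and 220.0 CPM in conduit, and their part in the Ntf3 values was not tested.

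Among the GDNF family ligands, Nrtn was the most abundant per length. It stood at 3.38, 1.87 and 2.19 CPM in injury and at 1.88, 2.29 and 2.39 CPM in conduit. Injury sample 1 was above the other 5 libraries, which lay close together. The means were 2.48 ± 0.796 and 2.18 ± 0.266 CPM (n = 3 each), a log2 fold change of -0.18 (SE 0.31; edgeR adjusted p = 0.9998) with a 95% interval of the fold from 0.531 to 1.46. The direction rested on injury sample 1, without which the log2 fold change was 0.12. Within batch 2 it was -0.22.

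Artn, the ligand of peptidergic nociceptors and sympathetic neurons, had the largest estimate of the 7 tested ligands, without passing the test. It stood at 0.771, 0.686 and 0.458 CPM in injury and at 0.700, 0.301 and 0.151 CPM in conduit. Conduit samples 2 and 3 lay below each injury library and conduit sample 1 lay among them. The means were 0.638 ± 0.162 and 0.384 ± 0.284 CPM (n = 3 each), with a log2 fold change of -0.73 (SE 0.60; edgeR unadjusted p = 0.265, adjusted p = 0.9998). Its 95% interval of the fold ran from 0.226 to 1.62. The pair of libraries in batch 2 gave a log2 fold change of 0.56, higher in conduit. Without conduit sample 1 the log2 fold change was -1.48, and without conduit sample 3 it was -0.35. From 79 counts over the injury libraries and 47 over the conduit libraries, counting error alone would give a ratio interval of 0.415 to 0.885.

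Gdnf, which supports non-peptidergic nociceptors and motor neurons, was close to the limit of detection. It had 8, 2 and 5 counts in injury samples 1 to 3 and 2, 3 and 2 counts in conduit samples 1 to 3, and it did not pass the filter. In 4 of the 6 libraries it was at or under 3 counts. The sums were 15 and 7 counts, a ratio of conduit to injury of 0.478 with a 95% counting interval of 0.165 to 1.25, so no difference was detectable at this depth. Repair Schwann cell markers (8 of 8 tested, none at 0), which name cells known to make Gdnf, summed to 1002 to 1310 CPM in injury and 866 to 1228 CPM in conduit. Ngfr alone held 494 to 807 CPM of these sums in injury and 438 to 732 CPM in conduit. The sums thus rest largely on 1 gene and are no measure of the number of these cells. Of the 8 markers 3 were higher and 5 lower, and 0 were called, beside 0.00607% of all genes tested. Jun, the factor that drives the repair state, was 120.1 to 168 CPM in injury and 112 to 134 CPM in conduit (log2 fold change -0.28; edgeR unadjusted p = 0.0866).

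Pspn, the ligand of Gfra4, was also scarce. It stood at 0.472, 0.686 and 0.217 CPM in injury and at 0.338, 0.402 and 0.603 CPM in conduit. The injury libraries enclosed the conduit libraries. Means of 0.458 ± 0.235 and 0.447 ± 0.138 CPM (n = 3 each) gave a log2 fold change of -0.04 (SE 0.53; edgeR adjusted p = 0.9998) and a 95% interval of the fold from 0.41 to 2.32. In RefSeq GRCr8, Pspn overlaps Alkbh7 on the opposite strand, which had 15.1 to 21.4 CPM. The labels and processing notes do not state whether counting used strand, so reads of the overlap cannot be assigned with certainty.

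Fgf2, a mitogen for glia, fibroblasts and vessel cells that leaves the cell without a signal peptide, had the widest ratio of highest to lowest library. It stood at 0.497, 0.639 and 0.699 CPM in injury and at 0.603, 1.13 and 0.176 CPM in conduit. The injury libraries lay close together, while the conduit libraries held both the highest and the lowest value, 6.43-fold apart. Its coefficient of variation over the 6 libraries, 49.6%, was below that of Ntf3, at 62.5%. The means were nearly level at 0.612 ± 0.104 and 0.636 ± 0.478 CPM (n = 3 each), with a log2 fold change of 0.06 (SE 0.64; edgeR adjusted p = 0.9998) and a 95% interval of the fold from 0.366 to 2.96. Without conduit sample 2 it was -0.64, without conduit sample 3 it was 0.50, and within batch 2 it was -0.20. Conduit sample 2, the highest in Fgf2, held 8245 CPM of skeletal muscle markers, but injury sample 1, next in these markers at 460 CPM, was second lowest in Fgf2. Conduit sample 3, the lowest, held the least of the pericyte and smooth muscle markers. The part of these tissues in the Fgf2 values was not tested. Nudt6, which overlaps Fgf2 on the opposite strand in RefSeq GRCr8, had 3.57 to 4.797 CPM, above Fgf2 in each library, so reads of the overlap are uncertain here too. Gdnf and Hgf each overlap a long non-coding RNA gene in RefSeq GRCr8, LOC134485851 and LOC103692033. Their reads in those overlaps carry the same limit.

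Hgf, a mesenchymal factor that promotes motility and axon growth, was steady. It stood at 4.85, 5.25 and 6.02 CPM in injury and at 6.25, 5.63 and 4.62 CPM in conduit. The conduit libraries enclosed the injury libraries. Means of 5.37 ± 0.598 and 5.50 ± 0.822 CPM (n = 3 each) gave a log2 fold change of 0.03 (SE 0.19; edgeR adjusted p = 0.9998), and the 95% interval of the fold ran from 0.744 to 1.41. Conduit sample 1 was highest in Hgf and also in fibroblast and meningeal markers (8 of 8 tested, none at 0). These summed to 5037 CPM there, to 3931 and 2969 CPM in conduit samples 2 and 3 and to 2707 to 4385 CPM in injury. The lowest library was conduit sample 3 for Hgf but injury sample 1 for these markers. Conduit sample 1 was also highest in macrophage, endothelial, mast cell and central glia markers. The part of these cells in the Hgf values was not tested. Over the 6 libraries the coefficient of variation was 11.9% for Hgf and 13.3% for Bdnf, against 6.71% and 4.33% from counting alone. Counting alone gives 22.0% for Ntf3 and 19.8% for Fgf2, and 21.8% for Artn, whose coefficient was 48.7%.

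**Figure D2:**
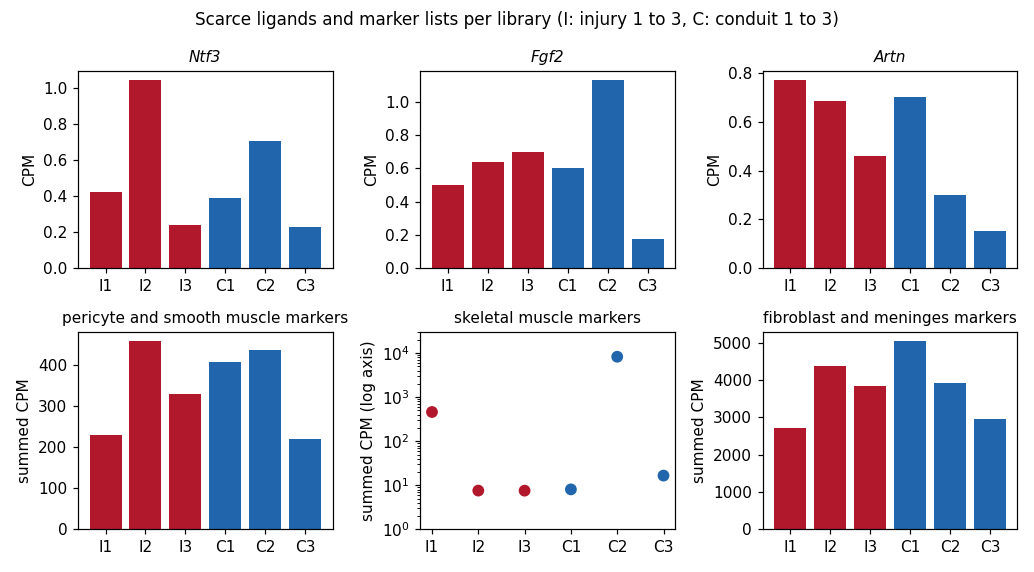
CPM of Ntf3, Fgf2 and Artn (top) and summed CPM of 3 marker lists (bottom) in each library, as bars from 0 and, for skeletal muscle, as points on a log axis (I1 to I3 injury, C1 to C3 conduit). Conduit sample 3 is the lowest in the 3 ligands and in the pericyte and smooth muscle markers, and conduit sample 2 holds the most muscle marker and Fgf2 counts.

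**Figure D3:**
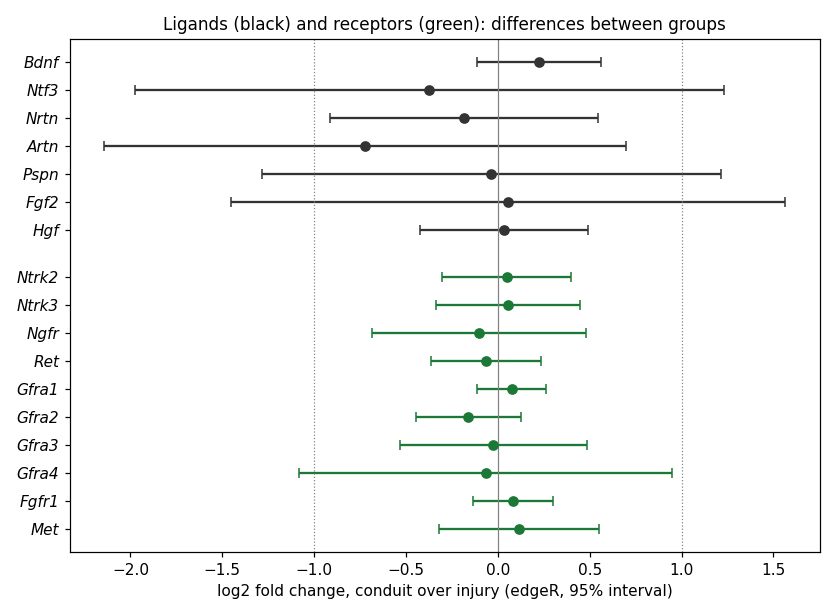
Log2 fold change of conduit over injury with its 95% interval from edgeR (horizontal axis) for the 7 tested ligands in black and 10 receptors in green, with dotted lines at a 2-fold change. Each interval crosses zero, and those of Bdnf, Nrtn and Hgf stay between the dotted lines.

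Per length, Bdnf and Nrtn were the most abundant ligands and Artn and Gdnf the least. On the scale of deposited FPKM (reads scaled by gene length and library depth), Bdnf averaged 2.04 over the 6 libraries (range 1.78 to 2.36) and Nrtn 1.98 (1.63 to 2.83). These 2 neighbours overlapped, and both lay above Hgf in every library, which averaged 0.902 FPKM (0.727 to 1.05). Fgf2 averaged 0.616 FPKM (0.164 to 1.09), Pspn 0.599 (0.293 to 0.956) and Ntf3 0.326 (0.138 to 0.702), and the ranges of Hgf, Fgf2, Pspn and Ntf3 overlapped from neighbour to neighbour. Artn averaged 0.0483 FPKM (0.0134 to 0.0709) and lay below Ntf3 in each library, and Gdnf averaged 0.0157 (0.0084 to 0.0342), with ranges that overlapped those of Artn. The order rests on gene lengths, which the counts and FPKM imply to be 0.755 kb for Pspn, 1.56 kb for Ntf3 and 10.7 kb for Artn. Without length the low end closes up: summed over the 6 libraries Artn had 126 counts, Ntf3 124 and Pspn 111, and Artn exceeded Ntf3 in 3 of 6 libraries. The place of Nrtn above Hgf also turned by counts. Hgf, with an implied length of 6.04 kb, had 184 to 259 counts per library and 1334 in sum. Nrtn, with 1.17 kb, had 78 to 136 counts per library and 570 in sum.

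Most receptors stood far above their ligands per length. Ntrk2 averaged 15.4 FPKM, 5.35 to 8.67 times Bdnf in the same library, and Ntrk3 5.06 FPKM, 8.28 to 34.3 times Ntf3. Gfra1 averaged 25.2 FPKM, at least 743 times Gdnf in every library. Gfra2 averaged 18.0 FPKM, 5.81 to 12.6 times Nrtn, and Gfra3 30.6 FPKM, at least 368 times Artn. Fgfr1 averaged 38.2 FPKM, 33.5 to 217 times Fgf2. The size of these ratios rests on implied lengths, such as 10.7 kb for Artn and 2.045 kb for Gfra3. For Ntf3 and Ntrk3 they were 1.56 and 23.5 kb. In summed counts Gfra3 had 15380 against 126 of Artn, and Ntrk3 had 29069 against 124 of Ntf3. Per length, a pair of receptors lay below their ligands in all 6 libraries: Gfra4, at 0.152 FPKM, was 0.174 to 0.495 times Pspn, and Met, at 0.760 FPKM, was 0.769 to 0.916 times Hgf. For each of the 8 pairs the range of the ratio in conduit overlapped that in injury. The implied lengths of Gfra4 and Pspn are 6.45 and 0.755 kb, and by counts the direction turned: Gfra4 exceeded Pspn in all 6 libraries, with 241 counts in sum against 111. Met, with 1298 counts against 1334 of Hgf, was lower by counts in 5 of 6 libraries.

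**Figure D4:**
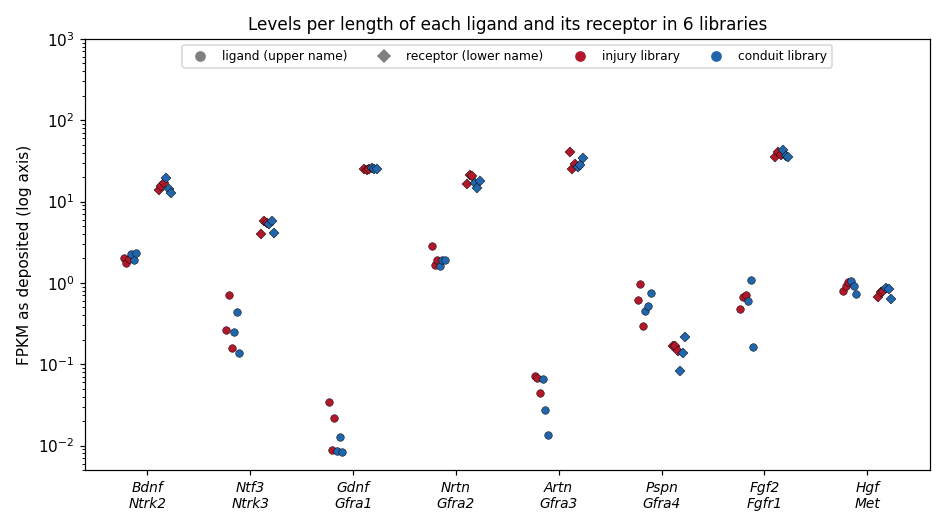
Deposited FPKM on a log axis of each ligand (circles) and its receptor (diamonds), with injury libraries in red and conduit libraries in blue. Per length, receptors lie above ligands for 6 pairs and below for Hgf with Met and for Pspn with Gfra4, where counts without length give the reverse (241 of Gfra4, 111 of Pspn).

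The receptors gave no call either. Of 14 receptors, all tested, 0 were called, 0 had an unadjusted edgeR p under 0.05 and 0 were apart between groups, beside 0.00607%, 5.35% and 9.63% of all genes tested, shares at which few or no calls are to be found among 14 genes. There were 6 higher and 8 lower, with a median log2 fold change of -0.04. Ret, the shared kinase of the GDNF family, stood at 772, 780.3 and 719 CPM in injury and at 616, 716 and 842 CPM in conduit (log2 fold change -0.06, SE 0.13). Gfra1 was the most even, at 220.4 ± 11.5 CPM in injury and 232 ± 5.79 in conduit (n = 3 each). Ngfr, also a repair Schwann cell gene, stood at 807, 494 and 541 CPM in injury and 438, 546 and 732 CPM in conduit, so its groups overlapped widely. Ntrk2, Ntrk3, Gfra2, Gfra3, Gfra4, Fgfr1 and Met had log2 fold changes between -0.16 and 0.11.

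Among the other growth factors of nerve and ganglion, Cntf came nearest to a difference. Of 20 listed genes 18 were tested and 0 were called by edgeR, beside 0.00607% of all genes tested. There were 13 higher and 5 lower, with a median log2 fold change of 0.10. At an unadjusted edgeR p under 0.05 there were 2, Cntf and Fgf7, which were also the 2 with groups apart, beside 5.35% and 9.63% of all genes tested. Cntf, a survival factor made by myelinating Schwann cells, stood at 68.3, 46.0 and 69.2 CPM in injury and at 108, 97.5 and 91.0 CPM in conduit. The conduit libraries were all above the injury libraries. The means were 61.2 ± 13.2 and 98.8 ± 8.48 CPM (n = 3 each), a log2 fold change of 0.69 (SE 0.17; edgeR unadjusted p = 0.00475, adjusted p = 0.614). DESeq2 called it (adjusted p = 0.0228), and the other tested settings did not, with adjusted p from 0.314 to 0.9999. Myelinating Schwann cell markers (9 of 9 tested, none at 0) summed to 30208 to 37000.4 CPM in injury and 44375 to 50684 in conduit, and their part in the Cntf values was not tested. Fgf7, a mesenchymal factor for epithelial cells, was 24.0 ± 3.10 CPM in injury and 30.6 ± 1.24 in conduit (n = 3 each; edgeR adjusted p = 0.809), also with the groups apart.

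Genes that release, activate or hold the ligands, and genes known to respond to their receptors, were also without a call. Of 25 genes for processing, release and matrix binding, 23 were tested, 10 higher and 13 lower, with a median log2 fold change of -0.03. Of the 23, 0 were called, beside 0.00607% of all genes tested, a share at which no call is likely in a list this short. At an unadjusted edgeR p under 0.05 there were 2 of 23, Scg2 and St14, beside 5.35% of all genes tested. The groups were apart for 2 of 23, beside 9.63%, so in a list this short neither count stands out. Scg2, a granin of the dense-core vesicles through which neurons secrete peptides, had the smallest p. Its level was 447, 338 and 363 CPM in injury and 249, 278 and 324 CPM in conduit. The conduit libraries were all below the injury libraries (log2 fold change -0.43, SE 0.14; edgeR unadjusted p = 0.0209, adjusted p = 0.809). St14, a membrane protease, had an unadjusted edgeR p of 0.0314 (log2 fold change -1.19) at a mean log2 CPM of 0.20. Sorcs2, a receptor for pro-neurotrophins, was at 67.1 ± 3.54 CPM in injury and 77.3 ± 7.997 in conduit (n = 3 each; edgeR adjusted p = 0.9998). Hgfac, the protease that activates Hgf in blood, did not exceed 3 counts in any library. Plat, a plasminogen activator that acts upstream of Bdnf maturation, was 125 to 173 CPM in injury and 153 to 172 in conduit.

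Of 18 transcriptional targets of receptor tyrosine kinases 17 were tested, 7 higher and 10 lower, with a median log2 fold change of -0.02. Here too 0 were called, beside 0.00607% of all genes tested, so no call is likely among 17 genes. At an unadjusted edgeR p under 0.05 there was 1 of 17, Dusp4, and for 2 of 17 the groups were apart. Over all genes tested these shares were 5.35% and 9.63%. Dusp4, a phosphatase that limits ERK signalling, was 17.5 ± 2.87 CPM in injury and 13.7 ± 0.942 in conduit (n = 3 each; edgeR unadjusted p = 0.0481, adjusted p = 0.930). Dusp5, a nuclear ERK phosphatase, lay on the other side, at 6.73 ± 0.869 and 8.29 ± 0.732 CPM (edgeR adjusted p = 0.9998). Vgf, a neuropeptide precursor induced by neurotrophins, was 45.4 to 57.9 CPM in injury and 41.9 to 73.0 in conduit. Etv5, a target of Ret and FGF receptors, kept to 59.6 to 71.3 CPM in injury and 61.2 to 64.5 CPM in conduit.

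The genes whose profile over the 6 libraries was most like each ligand's were found among 13014 genes by the root mean square difference of centred log2 CPM. For Bdnf these were Ephb1, an ephrin receptor, at 0.036, and Il34, a macrophage growth factor, at 0.0376, against 0.173 for the departure of Bdnf from its own mean. For Hgf they were Scrib at 0.0311 and Rnf24 at 0.0318, and for Nrtn Rplp2, a ribosomal protein, at 0.0635 and Dynlt2b at 0.0678. Hgf and Nrtn departed from their own means by 0.156 and 0.280. The scarce ligands departed more, by 0.727 for Artn, 0.486 for Pspn, 0.722 for Fgf2 and 0.708 for Ntf3. Their neighbours were also more distant: Prrx2, a mesenchymal transcription factor, at 0.202 and Slc25a34 at 0.310 for Artn, and Hrh3 at 0.2298 and Chchd4 at 0.249 for Pspn. For Fgf2 they were Itga8, an integrin of contractile mesenchymal cells, at 0.239 and Galr1 at 0.262, and for Ntf3 Fam78a at 0.326 and Angpt1, the vessel-stabilising ligand of Tek, at 0.327. With 6 libraries such likeness is a description of these samples.

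**Figure D5:**
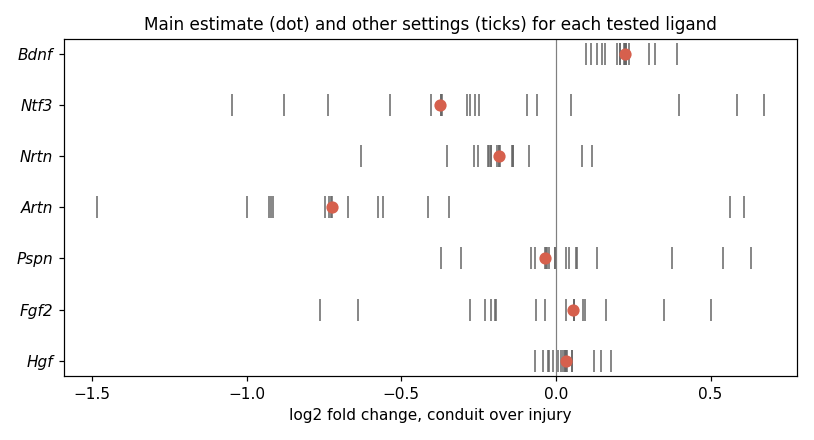
Log2 fold change of conduit over injury (horizontal axis) for each tested ligand as reported (dot) and under the other settings (ticks), which include each library left out and batch 2 alone. Bdnf stays above zero, between 0.0981 and 0.391, and the ticks of the other 6 ligands fall on both sides.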

How the data were processed

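Trigeminal ganglion RNA from 6 rat samples was measured by RNA-seq. Per the labels' protocols, RNA was extracted with TRIzol and mRNA libraries were made. Tools named in the submitters' processing notes are HISAT2, HTSeq, fastp, DESeq2 and SAMtools, with mRatBN7.2 as build. Their versions, the annotation and the strand setting were not found in the labels. Raw counts per gene symbol were deposited by the authors. The FPKM deposited by the authors are the same reads per length and depth: over 15192 genes with at least 10 counts in each library, both gave 1 length within a relative tolerance of 0.001, so they are no second measurement.

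Groups, days and batches came from the labels. Counts were analysed in R 4.3.3 with edgeR 4.0.16 (filterByExpr with a minimum of 10 counts, TMM, robust quasi-likelihood F test, 4 residual degrees of freedom, Benjamini-Hochberg adjustment over 16478 genes, threshold 0.05). Intervals of a fold are at 95%, per gene and unadjusted. Log2 CPM for within-batch values and profiles used a prior count of 2, and intervals from counts are exact and cover counting error only. With 3 libraries against 3, an exact permutation test can give no p under 0.1. Alternatives used DESeq2 1.42.0, limma 3.58.1 on voom values or on log2(FPKM + 1) and log2(FPKM + 0.1) for genes with a mean FPKM of at least 0.1, other scalings, no filter, the replicate number or batch in the fit, and left-out libraries. Leaving out the libraries richest in muscle, or in bone and dividing cell markers, was chosen after seeing the data. The fits were tested on simulated data with the same spread for every gene, where edgeR called 28% of 2-fold and 97% of 4-fold changes. The changed genes there averaged more counts than Ntf3, Gdnf, Artn, Pspn and Fgf2. The ligands and gene lists were chosen with earlier results of these data known. Named were the ligands, 10 receptors, the 2 genes of each list with the smallest p at a mean log2 CPM of at least 1, and 2 genes nearest each ligand's profile. Egr1, Arc, Jun, Plat, St14, Hgfac, Vgf, Etv5, Nudt6 and Alkbh7 were named after their values were seen. Start windows are from RefSeq, build GRCr8, which matched all 8 ligands by symbol.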

Additional observations from a re-analysis of the deposited data

How the results depend on the processing

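No ligand was called in any setting that gave a test. Of 124 ligand values under other settings, 96 were counted as unchanged, 26 as changed in sign and 2 as moved. Values within batch 2 were judged by their distance from the reported value against the SD of the injury libraries, not by sign. There Ntf3 and Pspn, counted as unchanged, and Artn and Fgf2, counted as moved, also changed sign. The sign of Bdnf never changed. Genes called over all genes numbered 1 as reported, 6 with no filter, 210 with DESeq2, 9 and 3 with limma on log2(FPKM + 1) and log2(FPKM + 0.1), 0 with the batch term, 13 without the 2 libraries richest in muscle markers and 23 without the 2 richest in bone and dividing cell markers. Over the listed pathway genes DESeq2 called 1, Cntf (log2 fold change 0.69), and edgeR 0. Below, values are log2 fold changes, and the cause of each change was not tested. With limma-voom Pspn was 0.064, Fgf2 -0.28 and Gfra3 0.0013. On log2(FPKM + 1) Fgf2 was -0.035, Hgf -0.011 and Ntrk2 -0.018, and on log2(FPKM + 0.1) Fgf2 -0.23, Hgf -0.024 and Ntrk2 -0.020; Artn fell under the FPKM minimum there. With batch as a term Ntf3 was 0.67, Artn 0.61, Pspn 0.63, Fgf2 -0.21 and Ntrk3 -0.013, and within batch 2, which gives no test, Artn was 0.56 and Fgf2 -0.20. Without the libraries richest in muscle markers Nrtn was 0.083, Pspn 0.068, Fgf2 -0.76, Hgf -0.042, Ntrk3 -0.18, Ngfr 0.19, Gfra3 0.27 and Gfra4 0.052. Without those richest in bone and dividing cell markers, which leaves 1 injury library assumed to vary like the others, Ntf3 was 0.049, Gfra1 -0.0012 and Gfra2 0.014.

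With each library left out in turn, 0 to 38 genes were called, the 0 without conduit sample 3 (1215 at an unadjusted edgeR p under 0.05), and the ranges were 0.13 to 0.32 for Bdnf, -0.88 to 0.40 for Ntf3, -0.35 to 0.12 for Nrtn, -1.48 to -0.35 for Artn, -0.37 to 0.37 for Pspn, -0.64 to 0.50 for Fgf2 and -0.068 to 0.14 for Hgf. Among receptors they were -0.11 to 0.16 for Ntrk2, -0.065 to 0.18 for Ntrk3, -0.32 to 0.15 for Ngfr, -0.18 to 0.043 for Ret, -0.19 to 0.23 for Gfra3 and -0.49 to 0.23 for Gfra4. Without conduit sample 1 Artn had an unadjusted edgeR p of 0.0443 and an adjusted p of 0.9999.

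The titles number the samples 1 to 3 in each group. Deviations of same-numbered samples from their group means correlated across genes at -0.417, 0.0574 and -0.0715. Those of differently numbered samples ran from -0.348 to 0.327. With 3 samples per group these correlations constrain each other, so they cannot decide whether the numbers mark pairs. With the replicate block edgeR called 0 genes (554 at an unadjusted p under 0.05), Pspn was 0.032, Fgf2 -0.20 and Gfra3 0.0028. Depth limits Gdnf, and Ntf3, Artn, Pspn and Fgf2 had under 50 counts per library. Counting alone gives coefficients of variation of 22.0%, 21.8%, 23.2% and 19.8% for Ntf3, Artn, Pspn and Fgf2. Their coefficients over the 6 libraries were larger, at 62.5%, 48.7%, 38.1% and 49.6%.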

Other observations

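Bdnf and Nrtn held most of the summed FPKM of the 8 ligands: 28.5% and 39.8% in injury sample 1, 26.3% and 24.8% in injury sample 2, 32.1% and 31.2% in injury sample 3, and 35.7% and 25.8%, 27.8% and 28.1%, and 38.6% and 31.7% in conduit samples 1 to 3. The summed level itself was even, at 7.11, 6.77 and 6.11 FPKM in injury and 6.31, 6.79 and 6.10 FPKM in conduit. The lowest library of a ligand was conduit sample 3 for 4 of the 8 ligands (Ntf3, Artn, Fgf2 and Hgf), in which Bdnf was at its highest. Sensory neuron markers were also highest in conduit sample 3, at 30820 CPM, and pericyte and smooth muscle markers lowest. Conduit sample 1, next in Bdnf at 14.2 CPM, was however the lowest in sensory neuron markers, at 21721 CPM. The part of these cells in the ligand values was not tested. Fgfr2 and Fgfr3, receptors of the FGF family known from astrocytes and oligodendrocytes, differed widely between libraries: Fgfr2 was 22.9, 33.5 and 30.5 CPM in injury and 41.6, 13.2 and 9.67 CPM in conduit, and Fgfr3 was 5.64 to 8.21 and 2.39 to 11.6 CPM. Central glia markers (6 of 6 tested, none at 0) summed to 656, 391 and 1102 CPM in injury and 1242, 141 and 199.7 CPM in conduit, and their part in the Fgfr2 values was not tested. These genes were named after their values were seen.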
